A study of Mus musculus with 12 samples.

Results

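Distal open regions that no library lacked were examined in HoxB8 cells, a mouse myeloid progenitor line made by immortalising bone marrow cells with an estrogen-dependent Hoxb8. The regions were taken from 12 lists of open chromatin peaks, 1 per library, obtained by ATAC-seq, an assay that uses the Tn5 transposase to tag DNA not covered by nucleosomes. Peaks of all lists on chromosomes 2 to 19 that overlapped by at least 1 bp were merged into 48531 regions. A merged region was kept when all 12 libraries had a peak in it, when it was narrower than 2500 bp, and when it lay more than 10 kb and at most 100 kb from the nearest end of any protein-coding gene. These conditions left 2573 distal shared regions, which were 5.3% of all merged regions and 21.1% of the 12191 regions shared by all 12 libraries. The regions were thus chosen by measured values, namely the presence of a called peak in each library, so presence is not a result here, and any region whose peak was missing in even 1 library is outside the set.

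All cells were sampled 48 h after estrogen had been withdrawn, and all had been grown with stem cell factor (SCF). The 4 groups had 3 libraries each. The sgB2/T618I cells carried sgB2, a guide RNA against Asxl1 intended to truncate the protein, and the pMICH vector with the CSF3R T618I mutation. The sgNT/T618I cells carried a non-targeting guide and the same T618I vector. The sgB2/Empty cells carried sgB2 and the empty vector, and the sgNT/Empty cells carried the non-targeting guide and the empty vector. Nothing in the labels tells whether replicate libraries are separate cultures, so p-values measure only the spread between these libraries, which may be technical. Every group is an overexpression and guide model in 1 immortalised line, and peak lists show neither the Asxl1 edit nor the level of CSF3R.

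Regions of this kind, far from gene ends, include enhancers, stretches of DNA where transcription factors bind and from which they act on promoters at a distance. In myeloid progenitors such elements are bound by factors of the ETS, C/EBP, RUNX and GATA families, and their accessibility shifts as cells leave the progenitor state. CSF3R is the receptor for granulocyte colony-stimulating factor and signals through JAK kinases and STAT factors, while Asxl1 is a chromatin protein that works with the histone H2A deubiquitinase Bap1. The comparisons address how the relative strength of peaks in these regions differed with the receptor mutation, the Asxl1 guide and their combination.

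No genome came with the lists, so sequence could be read only where a RefSeq promoter window (300 bases around a transcript start, GRCm38.p6, the coordinates of mm10) lay inside a region. Of the 2573 regions, 302 (11.7%) overlapped such a window, against 79.1% of the shared regions within 1 kb of a gene end. This contrast follows largely from the distance rule, which keeps the set away from gene ends. The 302 regions held alternative starts of protein-coding genes in 186 cases and starts of long non-coding RNAs in 139. The 6 windows below lie in regions that differed between T618I and Empty cells, as given in detail further on. They were chosen after their values were seen. The first 4 are those with the largest rise among windows with the ETS and PU.1 letters GAGGAAGT or the AP-1 letters TGACTCA, and the last 2 are from the largest falls. Capitals mark matches on either strand to these letters or to the GATA letters AGATAA.
Gm31619: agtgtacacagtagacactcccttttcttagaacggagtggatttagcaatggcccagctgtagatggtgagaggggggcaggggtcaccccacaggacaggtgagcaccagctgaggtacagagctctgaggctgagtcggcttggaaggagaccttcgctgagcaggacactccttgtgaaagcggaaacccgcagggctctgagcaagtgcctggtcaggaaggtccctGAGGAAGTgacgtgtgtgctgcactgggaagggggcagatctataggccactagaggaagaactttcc
Gm51550: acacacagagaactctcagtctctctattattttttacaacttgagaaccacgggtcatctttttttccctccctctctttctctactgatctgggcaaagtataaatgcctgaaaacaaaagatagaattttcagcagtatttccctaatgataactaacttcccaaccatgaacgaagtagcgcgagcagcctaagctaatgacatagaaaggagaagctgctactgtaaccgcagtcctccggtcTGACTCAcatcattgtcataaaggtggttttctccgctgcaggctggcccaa
Gm40491: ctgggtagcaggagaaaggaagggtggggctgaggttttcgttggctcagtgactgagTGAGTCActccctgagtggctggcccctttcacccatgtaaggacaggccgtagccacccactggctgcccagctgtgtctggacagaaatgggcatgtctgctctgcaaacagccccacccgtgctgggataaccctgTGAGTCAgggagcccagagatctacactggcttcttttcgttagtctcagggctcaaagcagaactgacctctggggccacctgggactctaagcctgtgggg
Zfp445: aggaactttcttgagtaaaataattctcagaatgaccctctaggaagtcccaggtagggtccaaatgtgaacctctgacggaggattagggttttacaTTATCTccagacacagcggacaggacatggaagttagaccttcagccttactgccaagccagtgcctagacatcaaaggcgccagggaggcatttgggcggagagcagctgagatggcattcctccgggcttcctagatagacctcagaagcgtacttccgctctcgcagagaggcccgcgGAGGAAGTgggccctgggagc
Frmd4a: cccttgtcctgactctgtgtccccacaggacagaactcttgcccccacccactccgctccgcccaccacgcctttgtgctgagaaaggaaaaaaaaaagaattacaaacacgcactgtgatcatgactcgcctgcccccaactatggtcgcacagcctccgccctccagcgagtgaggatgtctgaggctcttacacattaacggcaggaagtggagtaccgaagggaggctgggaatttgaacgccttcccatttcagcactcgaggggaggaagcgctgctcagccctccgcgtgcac
Gm52920: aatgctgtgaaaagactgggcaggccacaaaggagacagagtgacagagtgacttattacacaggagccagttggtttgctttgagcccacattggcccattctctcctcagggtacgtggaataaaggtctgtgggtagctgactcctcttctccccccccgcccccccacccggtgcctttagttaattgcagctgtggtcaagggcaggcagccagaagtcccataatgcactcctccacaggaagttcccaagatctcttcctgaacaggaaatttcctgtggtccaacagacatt

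The Gm31619 window (chr2:167589434-167589733, minus strand) lay in a region nearest to Ube2v1, and the Gm51550 window (chr8:109750582-109750881, plus strand) in one nearest to Atxn1l. The Gm40491 window (chr12:86833714-86834013, minus strand) lay near Irf2bpl, and the Zfp445 window (chr9:122865957-122866256, minus strand) belongs to an alternative start of Zfp445. The Frmd4a window (chr2:4559504-4559803, plus strand) is an internal start of that gene, and Gm52920 (chr6:134186464-134186763, minus strand) is a non-coding RNA start inside Etv6. GAGGAAGT was found in 5 of the 40 windows inside regions that rose with T618I (12.5%), in 0 of the 17 windows inside regions that fell, in 7.17% of the 293 windows inside any distal shared region and in 3.2% of all 32851 windows. TGACTCA was found in 5 of the 40 (12.5%), in 0 of the 17, in 5.46% of the 293 and in 5.2% of all windows. AGATAA was found in 5.0% of the 40, 5.88% of the 17, 6.83% of the 293 and 11.2% of all windows, and AACCACA, a RUNX motif, in 0 of the 40, 5.88% of the 17, 4.78% of the 293 and 5.27% of all windows. TTGCGCAA, a palindromic C/EBP motif, was in 0 of the 293, and the core of the CTCF motif in 1. Only exact letters were searched, so 0 of the 17 does not mean that closely related letters were absent. The printed Frmd4a and Gm52920 windows hold AGGAAGT, which is GAGGAAGT without its first letter and is not marked. Windows of neighbouring starts can overlap, and these matches are descriptions of the letters and carry no test.

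The 2573 regions had a median width of 777 bp (187 to 2487 bp) and a median distance to the nearest gene end of 25.4 kb (25th to 75th percentile 15.9 to 44.6 kb). Although distal to gene ends, 1455 of them (56.5%) lay inside the span of a protein-coding gene, against 30.4% of all shared regions. A region counted as inside only when it lay wholly within a gene. The rule leaves no region across a gene end in the set, so this contrast follows partly from the rule. Exon positions were not used here. The regions were spread over 1852 nearest genes, of which 1368 had a single region, 22 had 5 or more and the richest had 7. Another region of the set lay within 10 kb of 469 of them (18.2%). In 107 regions (4.16%) at least 1 library had more than 1 peak. At the edges of the rule, a region near Dhx34 at 9997 bp from a gene end fell outside the set and one near Tbc1d9b at 10004 bp fell inside, with mean strengths at the 21.0 and 7.0 percentile. At the width limit, the region near Supt3 (2487 bp) was inside and that near Mvb12b (2526 bp) outside, and at the far limit the region near Ppp3ca (99892 bp) was inside and that near Cd24a (100133 bp) outside.

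Strength was measured as the authors' −log10 p of the peak, which grows with sequencing depth. It was therefore turned into a percentile in each library, from 0 for the weakest to 100 for the strongest of the 12191 shared regions, so that every ranked list had the same length. The distal shared regions were weaker than regions at gene ends. Their mean percentile over the 12 libraries had a median of 34.0 (25th to 75th percentile 19.4 to 53.2). It was 39.6 for the 2088 shared regions over 1 to 10 kb from a gene end and 59.8 for the 7003 within 1 kb. A low rank was not particular to the set. The median was 34.4 for the 437 shared regions over 100 kb away and 27.9 for the 90 of 2500 bp or more. Of the 2573 regions, 65 (2.53%) were in the top 10 percentiles and 240 (9.33%) in the lowest 10. The median percentile of the set lay between 32.6 and 37.0 in all 12 libraries. The within-group standard deviation of a region had a median of 8.94 percentile points, against 8.17 over all shared regions.

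**Figure D1:**
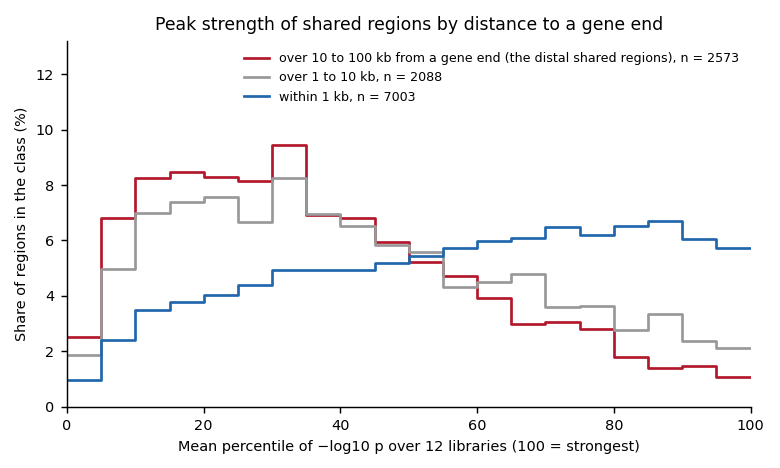
Distribution of the mean percentile of −log10 p over 12 libraries (x axis, 100 is strongest) as a share of the regions in each distance class (y axis, %). The curve of the 2573 distal shared regions lies to the left, with a median of 34.0, and that of the 7003 regions within 1 kb of a gene end lies to the right, with a median of 59.8.

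The strongest members were chosen by their mean percentile over all 12 libraries, so their high rank in every group followed from that choice. A percentile at this ceiling hides differences in −log10 p. The region near Mex3c, which encodes an RNA-binding ubiquitin ligase, and that near Gtpbp4, a factor of ribosome assembly, were at the 100.0 percentile in all 12 libraries. Their −log10 p ran from 129.1 to 204.2 and from 62.0 to 183.9, and their peaks covered the same 223 bp and 466 bp in every library. The region near Chd2 (chr7:73557951-73559081), which holds the promoter of the non-coding RNA Chaserr, was between the 96.3 and 99.8 percentile. The regions near Rab2a, Ripor2 and Wnt7b were at or above the 98.2 percentile in every library. At the other end, the weakest members were chosen in the same way. The regions near Psd2, Nupl1 and Dscaml1 did not pass the 8.1 percentile in any library. No distal shared region had Asxl1, Csf3r or Hoxb8 as its nearest gene.

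The lists held between 18604 peaks (sgNT/Empty replicate 1) and 33152 peaks (sgB2/T618I replicate 2), with 23830 to 33152 in T618I libraries and 18604 to 29833 in Empty libraries. Of 20381 merged regions that met the width and distance conditions, 827 had a peak in 11 libraries, and 356 of these lacked it only in sgNT/Empty replicate 1 and 170 only in sgB2/Empty replicate 1. Those 2 libraries, with the shortest lists, thus decided the membership of more regions than the others. The cell label was checked by peaks within 1 kb of the ends of marker genes. Of 15 myeloid genes 10 had a peak in all 12 libraries, among them Spi1, Cebpa, Cebpe, Mpo and Csf3r, while Elane had one in 1 library and Fcgr3 in 0. Of 12 T and B cell genes 10 had none in any library, and Ebf1 had one in 10 libraries and Cd79a in 6. Of 9 erythroid and megakaryocyte genes Klf1 alone had one in all 12 and 3 had none, and of 12 non-blood genes 9 had none, while Col1a1 had one in 11 libraries.

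The rank of many distal shared regions differed between T618I and Empty cells. A region is said to have risen or fallen when limma's moderated test on the percentiles gave a Benjamini-Hochberg adjusted p below 0.05 over all 12191 shared regions. With T618I, averaged over both guides, 378 of the 2573 regions rose and 305 fell, against 9.92% of all shared regions that rose and 8.49% that fell. These 683 regions were 26.5% of the set, against 18.4% of all shared regions. Among them 204 rose and 185 fell by at least 20 percentile points, and 14 rose and 25 fell by at least 40. The matching counts over all shared regions are not given, so these counts describe the set alone. The median absolute difference was 8.51 points over the set and 6.31 over all shared regions, with a median standard error (SE) of 5.31 points in the set. Of the 437 shared regions over 100 kb from a gene end 29.5% were called, of those over 1 to 10 kb away 23.4%, and of the 7003 gene-end regions 13.3%. Within the middle of the strength range, at a mean percentile of 20 to 60, the shares were 27.5% for the distal set, 29.5% for the class over 100 kb away, 25.6% for the 1 to 10 kb class and 14.4% at gene ends. The difference between classes was not tested. The number of calls and the balance of rises and falls changed with the scaling. With the fold column ranked in place of −log10 p 94 rose and 137 fell, 8.98% of the set against 5.59% of all shared regions. With ranks within each whole list 285 rose and 104 fell, 15.1% against 9.66%. With the number of peaks of a library as a covariate 227 rose and 224 fell, 17.5% against 11% of all shared regions.

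The largest fall was at Kit, which encodes the receptor for SCF, and the largest rises were at Arhgef19 and Socs1. The Kit region (chr5:75730550-75731406, 73.8 kb from the nearest end of Kit, between genes) stood at the 11.9, 2.9 and 1.2 percentile in sgB2/T618I and at 26.0, 54.7 and 41.6 in sgNT/T618I, against 83.8, 90.9 and 92.1 in sgB2/Empty and 93.8, 95.4 and 91.8 in sgNT/Empty. All 6 T618I libraries lay below all 6 Empty libraries, and the sgB2/T618I libraries below the sgNT/T618I libraries. The T618I difference was −68.2 ± 5.6 points (SE; limma adjusted p = 4.36e-06). Kit was also lower with sgB2, with a difference of −20.1 ± 5.6 points (adjusted p = 0.0479). With T618I present the sgB2 difference was −35.4 ± 7.9 points (limma adjusted p = 0.0414), and with the empty vector it was −4.7 ± 7.9 (adjusted p = 0.812), but the difference between these was not called (−30.7 ± 11.2, adjusted p = 0.563).

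The Socs1 region (chr16:10768848-10769139, 14.7 kb away, between genes) showed the opposite picture. Socs1 is a feedback inhibitor of JAK kinases. The percentile was 74.2, 73.3 and 67.9 in sgB2/T618I and 68.6, 77.5 and 75.7 in sgNT/T618I, against 15.4, 19.6 and 17.1 in sgB2/Empty and 12.8, 22.1 and 18.3 in sgNT/Empty. The groups with and without T618I did not overlap, and the sgB2 difference was −1.3 ± 5.0 points (limma adjusted p = 0.917). The T618I difference was 55.3 ± 5.0 points (limma adjusted p = 8.53e-06), and it was 54.4 ± 7.0 in sgB2 cells and 56.2 ± 7.0 in sgNT cells. On the deposited scale, the −log10 p of this 292 bp region was 18.3 to 32.3 in T618I libraries and 6.7 to 12.6 in Empty libraries, with no overlap.

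Of the other large rises, the region near Arhgef19, a guanine nucleotide exchange factor (chr4:141272871-141273634, 15 kb), was at the 43.6 to 74.2 percentile in T618I libraries and at 0.8 to 14.4 in Empty libraries, a difference of 55.4 ± 5.0 points (limma adjusted p = 8.53e-06). A region 39.5 kb from Cdk6, a kinase of the G1 phase of the cell cycle, differed by 55.2 ± 7.2 points, and a region inside Anxa11, a calcium-dependent phospholipid-binding protein, by 52.6 ± 5.9. The region nearest to Itgb1bp1, which lies inside Asap2, differed by 51.3 ± 5.6 points, and one inside Myo1d, an unconventional myosin, by 47.6 ± 6.2. A region 22.7 kb from Csf1, the macrophage colony-stimulating factor, was at 79.6, 76.5 and 79.0 in sgB2/T618I and at 81.4, 73.8 and 87.3 in sgNT/T618I, against 45.2, 27.5 and 15.7 in sgB2/Empty and 42.3, 29.0 and 34.3 in sgNT/Empty. T618I and Empty libraries did not overlap at Anxa11 and Csf1, while at Myo1d the lowest T618I library (39.5) lay below sgNT/Empty replicate 3 (41.6).

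The largest fall after Kit was near Adamts2. The region 35.7 kb from Adamts2, a procollagen protease (chr11:50565501-50566420), was at 1.6, 0.0 and 2.0 in sgB2/T618I and 14, 15.8 and 28.0 in sgNT/T618I, against 65.7, 71.2 and 72.4 in sgB2/Empty and 83.8, 70.4 and 81.8 in sgNT/Empty. The difference was −64.0 ± 5.2 points (limma adjusted p = 4.36e-06). Differences of −55.2 ± 5.4 points in Gramd1b, a sterol carrier, and −51.8 ± 6.1 in Cldn14, a tight junction claudin, were of similar size. The internal start of Frmd4a printed above differed by −51.7 ± 5.1 points, and the regions near Kctd1 and near Cav1, the caveolin gene, by −50.1 ± 5.4 and −46.5 ± 5.1. In these falls all 6 T618I libraries lay below all 6 Empty libraries.

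The regions whose promoter windows are printed above showed the same kinds of difference. The Gm31619 region was at 89.0, 72.3 and 74.7 in sgB2/T618I and 79.7, 77.4 and 83.6 in sgNT/T618I, against 29.9, 37.6 and 44.9 in sgB2/Empty and 37.3, 52.1 and 65.0 in sgNT/Empty, with no overlap and a difference of 35.0 ± 5.6 points. The Gm51550 region differed by 32.9 ± 7.8 points, although sgB2/Empty replicate 1 (67.0) lay among the T618I libraries (55.8 to 78.3). The Gm40491 and Zfp445 regions differed by 27.4 ± 5.1 and 24.7 ± 4.8 points. The Gm52920 region inside Etv6 was at 18.2, 56.3 and 42.1 in sgB2/T618I and 14.5, 16.5 and 48.4 in sgNT/T618I, against 82.8, 85.1 and 80.6 in sgB2/Empty and 79.2, 70.5 and 72.3 in sgNT/Empty, a difference of −45.7 ± 7.2 points without overlap.

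**Figure D2:**
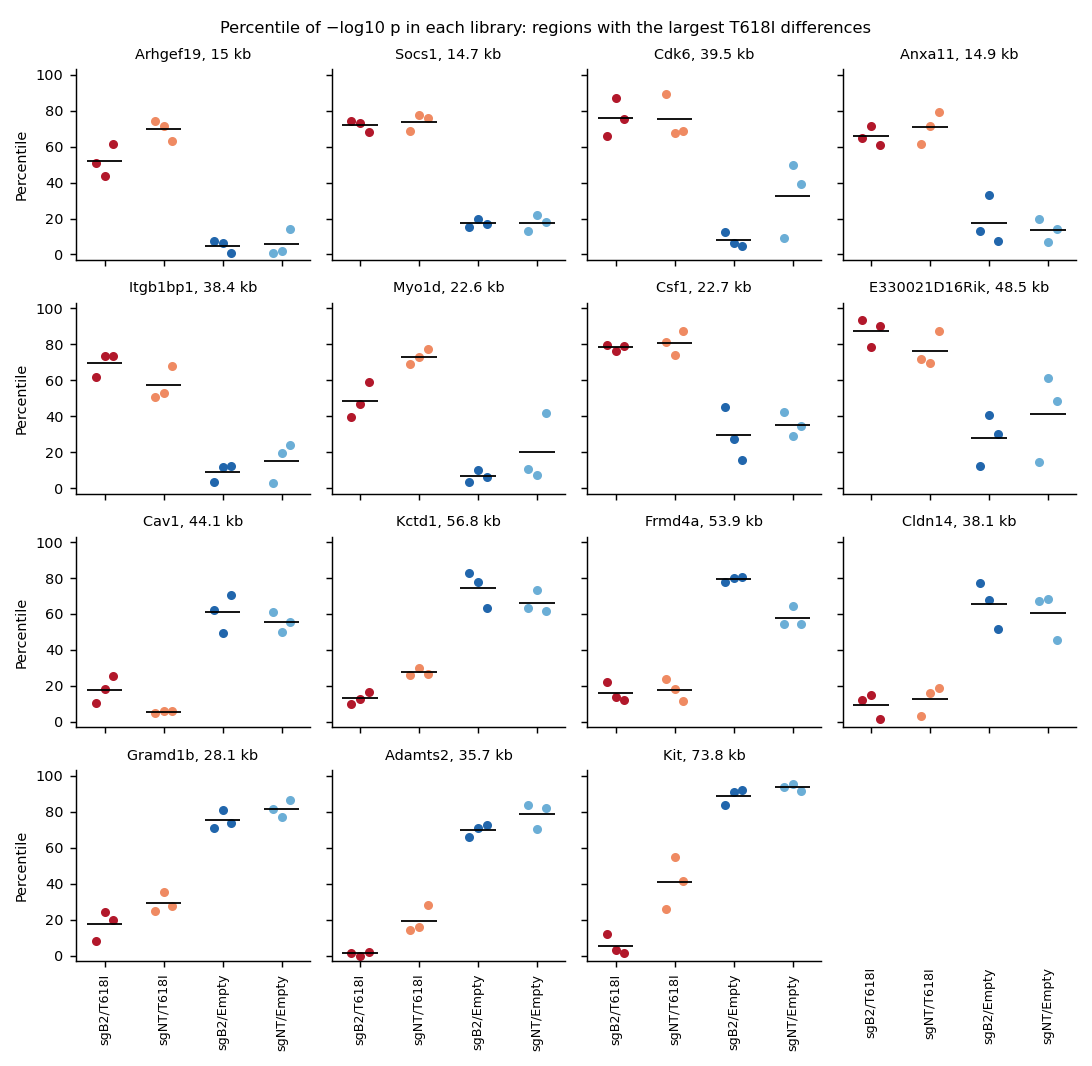
Percentile of −log10 p (y axis, 100 is strongest) in each library for the 8 regions with the largest rise and 7 of the 8 with the largest fall with T618I, named by nearest gene and distance. Points are libraries, ordered sgB2/T618I, sgNT/T618I, sgB2/Empty and sgNT/Empty, and bars are group means of 3. The Kit region falls to group means of 5.4 and 40.8 with T618I, against 88.9 and 93.7 with the empty vector.

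The counts for gene lists stand beside 9.92% of all shared regions that rose with T618I and 8.49% that fell. In the set these shares were 14.7% and 11.9%. Of 18 regions whose nearest gene was on a list of stem and progenitor genes, 7 fell, 1 rose and 10 were not called. Their median difference was −11.5 points, against −0.14 over all shared regions. With the fold column 3 fell and 0 rose, with whole-list ranks 4 fell and 1 rose, and with list length as a covariate 5 fell and 0 rose. Besides Kit, the region inside Myb, a transcription factor of proliferating progenitors, differed by −41.4 ± 6.0 points, one near Hlf by −27.4 ± 5.7, one near Gata2 by −15.1 ± 4.8 and one inside Runx1 by −29.4 ± 5.5. Near 13 of the listed myeloid transcription factors lay 24 regions, of which 7 rose and 4 fell, with a median of −1.2 points that turned to 2.22 with whole-list ranks. Of 9 regions near JAK-STAT target genes 3 rose and 1 fell. Besides Socs1, those near Jak2, a kinase of cytokine receptors (23.9 ± 5.1 points), and Il4ra, the interleukin 4 receptor (23.5 ± 5.3), rose, and one 65.9 kb from Myc, a driver of proliferation, fell (−26.4 ± 7.1). Of 11 regions near inflammatory genes 2 rose, both near Nfkbiz, and 2 fell, near Tnfaip3 and Il1b. The list of monocyte, macrophage and dendritic cell genes had 10 regions, of which 2 rose and 1 fell, and the region near Adgre1, the macrophage antigen F4/80, rose by 29.8 ± 4.6 points. One of 2 regions near the mature neutrophil gene Itgam rose (20.1 ± 6.3).

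The remaining lists held few of the regions, and their counts stand beside the same shares. With T618I 14.7% of the set rose and 11.9% fell, against 9.92% and 8.49% of all shared regions. Of 7 regions near actin and migration genes 2 rose and 1 fell, the last inside Dock2, a Rac activator of leukocytes (−31.6 ± 5.9 points). Of 6 near housekeeping genes 2 rose and 1 fell. Of 5 near Polycomb and Asxl1-Bap1 genes 1 rose, near Cbx8 (17.1 ± 5.7, limma adjusted p = 0.0475), and 0 fell. Of 2 near mast cell, basophil and eosinophil genes 1 fell, the Gata2 region that the progenitor list also holds. None of 3 near cohesin genes and of 1 near the granule protease gene Ctsd was called, and the erythroid and lymphoid lists had 0 regions. Lists share genes, and their counts are descriptions without a test of the list.

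Neighbouring regions of a gene did not always move the same way. Of 67 genes with at least 2 regions called for T618I, 23 had only rises, 16 only falls and 28 both. In the set as a whole 378 regions rose and 305 fell, so unrelated regions also often differ in direction. Whether regions of 1 gene differ more or less often than unrelated regions was not tested. The following genes were singled out after their values were seen. Beyond Cebpb, a transcription factor of granulocytes and macrophages that is induced in emergency granulopoiesis, lay 6 regions at 19.5 to 84.5 kb, and 4 of them rose. At 74.6 kb (chr2:167765048-167765670) the percentile was 78.0, 61.6 and 73.7 in sgB2/T618I and 51.5, 72.6 and 71.4 in sgNT/T618I, against 39.0, 49.5 and 28.6 in sgB2/Empty and 26.8, 12.6 and 13.4 in sgNT/Empty. All T618I libraries lay above all Empty libraries, with a difference of 39.8 ± 6.2 points. The regions at 84.5, 49.9 and 69.6 kb differed by 35.7 ± 4.4, 28.8 ± 5.0 and 16.6 ± 2.3 points. The region at 63.3 kb was at the 95.1 percentile or above in every library, with a difference of 0.6 ± 0.9.

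At Cdk6 the regions split by position. Those outside the gene at 39.5 and 61.6 kb rose, by 55.2 ± 7.2 and 18.9 ± 6.4 points, while one inside the gene fell (−36.2 ± 4.6). The last stood at 57.4, 52.5 and 49.7 in sgB2/T618I and 25.9, 40.2 and 43.0 in sgNT/T618I, against 87.7, 89.7 and 84.5 in sgB2/Empty and 77.8, 72.6 and 73.5 in sgNT/Empty. In Runx1, a master regulator of blood formation, one intragenic region rose by 30.6 ± 7.5 points and another fell (−29.4 ± 5.5). Of 5 regions near Tet2, which encodes a DNA demethylating enzyme often mutated in myeloid neoplasms, 2 fell, and of 4 in Etv6, an ETS repressor, 2 fell. Among genes with 6 or 7 regions, the 7 in Tex14 were mostly strong and 1 rose (22.6 ± 6.0), the 6 in Rin3 had no call, and Zfp217 had 1 rise (25 ± 5.4) and 1 fall (−20.5 ± 3.8). Of 7 regions at Itpr1, an intracellular calcium channel, 1 rose (24.2 ± 5.8) and 1 fell (−7.8 ± 2.3), and of 6 at Zfp608 1 fell (−25.1 ± 5.4). Assignment to the nearest gene end does not show which gene a region acts on.

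**Figure D3:**
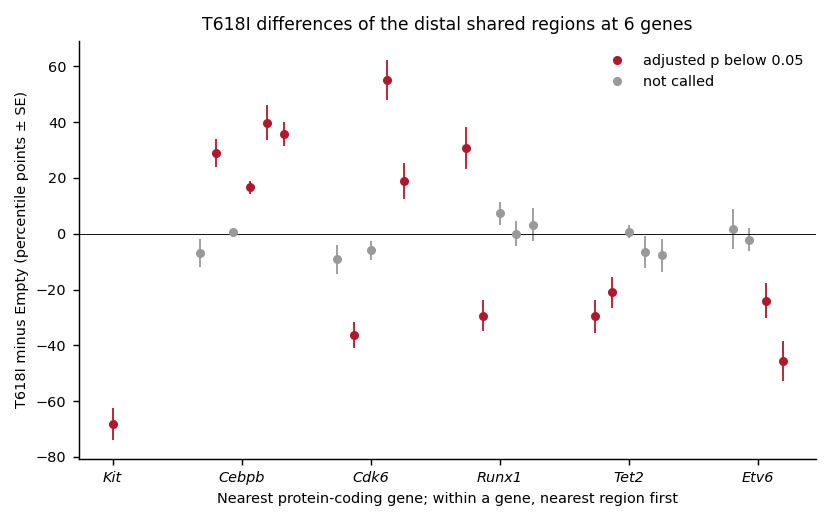
T618I minus Empty difference in percentile points (y axis, points with SE bars) of every distal shared region at 6 genes, nearest region first within a gene (x axis). Red points passed an adjusted p below 0.05. At Cebpb 4 of 6 regions are above 0 and red, while Cdk6 and Runx1 have red points on both sides of 0.

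The T618I difference was also taken separately in each guide background, and these comparisons share no library. In sgB2 cells 166 regions rose and 168 fell, against 4.85% and 3.9% of all shared regions. In sgNT cells 115 rose and 109 fell, against 2.24% and 2.14% of all shared regions. In either direction these were 13% of the set against 8.74% of all shared regions in sgB2 cells, and 8.71% against 4.38% in sgNT cells. The fold column left 23 rises and 55 falls in sgB2 cells, 3.03% of the set against 1.98% of all shared regions. In sgNT cells it left 3 rises and 12 falls, 0.583% against 0.23%. Whole-list ranks left 71 and 39 in sgB2 cells (4.28% against 3.05%) and 18 and 10 in sgNT cells (1.09% against 0.468%). Without any 1 sgNT/T618I library the sgNT count was 97 to 99, without sgNT/Empty replicate 1 118 and without sgNT/Empty replicate 2 121. The calls of 108 regions held in both backgrounds (4.2% of the set, against 1.93% of all shared regions), which was 32.3% of the sgB2 list and 48.2% of the sgNT list, and 107 of these had the same direction, 48 higher and 59 lower. Over the whole set 1856 regions (72.1%) had the same sign in both, against 69.5% of all shared regions, and Pearson's r across the 2573 regions was 0.67. This correlation is a description across regions, which share libraries and peak calls and are not independent replicates.

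Of the regions named for T618I in sgNT cells, those near Tcte2 and inside Ints9 had not been named above. In sgNT cells the region near Tcte2 (chr17:13682449-13684152) was at 92.2, 95.2 and 98.0 with T618I, against 35.8, 34.9 and 51.1 with the empty vector, and one inside Ints9, a subunit of the Integrator complex, at 6.3, 16.3 and 12.4, against 60.9, 65.1 and 72.8. In sgB2 cells the same regions were at 75.9, 96.5 and 88.9 with T618I, against 63.3, 37.7 and 47.3 with the empty vector for Tcte2, and at 12.3, 16.2 and 35.8, against 56.8, 59.2 and 56.0 for Ints9. For both regions the T618I and Empty libraries did not overlap within either guide. The Tcte2 call in sgNT cells was lost with the fold column.

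**Figure D4:**
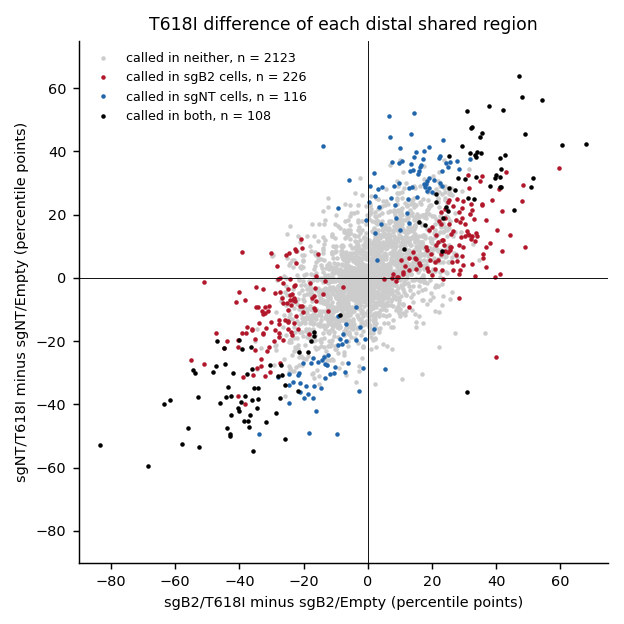
T618I difference of each of the 2573 distal shared regions in sgB2 cells (x axis) and in sgNT cells (y axis), in percentile points. Black points, n = 108, were called in both backgrounds, red in sgB2 cells alone and blue in sgNT cells alone. Black points lie in the upper right and lower left with 1 exception, the region near Fem1al.

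Fewer of the regions differed in rank between sgB2 and sgNT cells. With sgB2, averaged over both vectors, 79 regions rose and 119 fell, against 2.44% and 2.77% of all shared regions. These 198 regions were 7.7% of the set, against 5.22% of all shared regions. With the fold column 9 rose and 16 fell, 0.972% of the set against 0.812% of all shared regions, and with whole-list ranks 16 rose and 24 fell, 1.55% against 1.1%. Ranks within the set alone gave 111 rises and 106 falls. At least 20 points separated the guides in 45 rises and 66 falls, counts that describe the set alone. Without sgNT/Empty replicate 3 the count of calls was 111, and it was 123 to 131 without sgB2/Empty replicate 2, sgNT/Empty replicate 2 or any 1 of the 3 sgNT/T618I libraries. The calls covered 10.8% of the regions over 100 kb from a gene end, 7.14% of those over 1 to 10 kb away and 3.43% of gene-end regions. At a mean percentile of 20 to 60 the distal set had 7.85%, below the 8.62% of the 1 to 10 kb class. In that range the class over 100 kb away had 13.6% and gene ends 3.57%. The difference between classes was not tested.

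The largest rise was near Fbxw7, the substrate receptor of a ubiquitin ligase that degrades Myc and cyclin E. This region (chr3:85022710-85023238, 43.5 kb away, at the start of the RNA Gm30944) was at 72.3, 81.5 and 70.5 in sgB2/T618I and 81.2, 78.5 and 85.9 in sgB2/Empty, against 31.7, 45.8 and 45.2 in sgNT/T618I and 24.5, 18.2 and 26.4 in sgNT/Empty. The sgB2 libraries all lay above the sgNT libraries, a difference of 46.3 ± 5.2 points (limma adjusted p = 0.000135). Regions inside Tox2, an HMG-box factor, inside Rps6ka2, a kinase of the RSK family, and at another position of Frmd4a differed by 45.8 ± 5.8, 41.2 ± 6.3 and 41.0 ± 6.1 points. The regions near Gm38821, Gm4802, Ckap4 and Usp12 rose by 33.8 to 38.8 points, and the Ckap4 call was lost when −log10 p was multiplied by the covered length. That near Gm4802 rose with both changes: its percentile was 53.5, 74.4 and 74.2 in sgB2/T618I, 17.9, 39.1 and 39.2 in sgNT/T618I, 37.1, 42.8 and 49.5 in sgB2/Empty and 3.9, 1.7 and 3.2 in sgNT/Empty.

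The largest fall with sgB2 was near Gm38457 (chr5:64753107-64753562), at 0.2, 3.9 and 1.8 in sgB2/T618I and 25.5, 8.0 and 24.8 in sgB2/Empty, against 42.9, 41.8 and 54.9 in sgNT/T618I and 58.6, 62.0 and 59.6 in sgNT/Empty. The groups did not overlap, and the difference was −42.6 ± 4.8 points (limma adjusted p = 0.000135). A region 81.2 kb from Tet2 (chr3:133626354-133627049) was at 8.4, 15.9 and 7.6 in sgB2/T618I and 9.5, 34.4 and 17.4 in sgB2/Empty, against 54.4, 42.4 and 53.2 in sgNT/T618I and 44.3, 71.1 and 51.5 in sgNT/Empty. Its difference of −37.3 ± 5.9 points (adjusted p = 0.00193) did not come with a T618I change (−7.7 ± 5.9). Regions near Itgb1, the integrin beta-1 gene, St3gal1, a sialyltransferase, and Rnaset2a differed by −37.7 ± 6.3, −36.2 ± 8.4 and −36.0 ± 5.7 points. The St3gal1 call was lost without sgNT/Empty replicate 3, without sgNT/T618I replicate 2, with the fold column and with whole-list ranks. A region near Etv1, an ETS factor, differed by −35.7 ± 6.4 points with sgB2 and by 25.7 ± 6.4 with T618I. Its group mean was 72.3 in sgNT/T618I, against 17.7 in sgB2/T618I, 10.9 in sgB2/Empty and 27.7 in sgNT/Empty. The sgB2 difference was called with T618I (−54.6 ± 9.0) and not with the empty vector (−16.8 ± 9.0). The T618I difference was called in sgNT cells (44.6 ± 9.0) and not in sgB2 cells (6.8 ± 9.0). The interaction there was not called (limma adjusted p = 0.503). A region inside Lrch1 differed by −35.5 ± 6.1 points with sgB2. With the fold column the sgB2 calls near Etv1, Rnaset2a, Rps6ka2, Gm38821 and Usp12 were lost, the Etv1 call also with whole-list ranks.

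Few regions near listed genes were called for sgB2. In the set 3.07% rose with sgB2 and 4.62% fell, against 2.44% and 2.77% of all shared regions. The housekeeping list had 2 falls, near Actb (−12.0 ± 2.3 points) and Ywhaz (−22.1 ± 4.3). The progenitor list had 1 rise, at Runx1 (17.1 ± 4.0), and the Kit fall. One region fell in each of the myeloid transcription factor, actin and primary granule lists, at Cebpb (−10.0 ± 2.3), Actb and Ctsd, a lysosomal protease (−16.6 ± 4.3). With the empty vector the falls at Cebpb, Actb, Ctsd and Ywhaz were −18.4 ± 3.2, −21.0 ± 3.2, −25.9 ± 6.0 and −27.5 ± 6.1 points, and all were called. With T618I they were −1.7 ± 3.2, −3.1 ± 3.2, −7.2 ± 6.0 and −16.6 ± 6.1, and none was called. The interaction was not called in any of these regions. In the monocyte list 1 region near Ly86 rose (19.3 ± 5.0), and the other 8 lists had 0 calls, of which the erythroid and lymphoid lists had no region.

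In Camk2b, a calcium- and calmodulin-dependent kinase gene, rank and width went opposite ways. The percentile of the region (chr11:6005541-6006584) was 69.7, 43.2 and 68.8 in sgB2/T618I and 54.6, 27.0 and 21.7 in sgB2/Empty, against 90.5, 96.4 and 75.4 in sgNT/T618I and 87.6, 97.1 and 91.3 in sgNT/Empty, a difference of −42.2 ± 6.3 points (limma adjusted p = 0.0012). Its peaks covered 740 to 1003 bp in sgB2/T618I and 872 to 1021 bp in sgB2/Empty, against 334 to 366 bp in sgNT/T618I and 319 to 411 bp in sgNT/Empty. The guides did not overlap in either measure. The covered length rose by 1.55 ± 0.09 on the log2 scale (limma adjusted p = 1.49e-05). A broad peak's value is a mean along the peak, and with −log10 p multiplied by covered length, an alternative added after the data were seen, the rank difference was 8.68 points and not called.

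**Figure D5:**
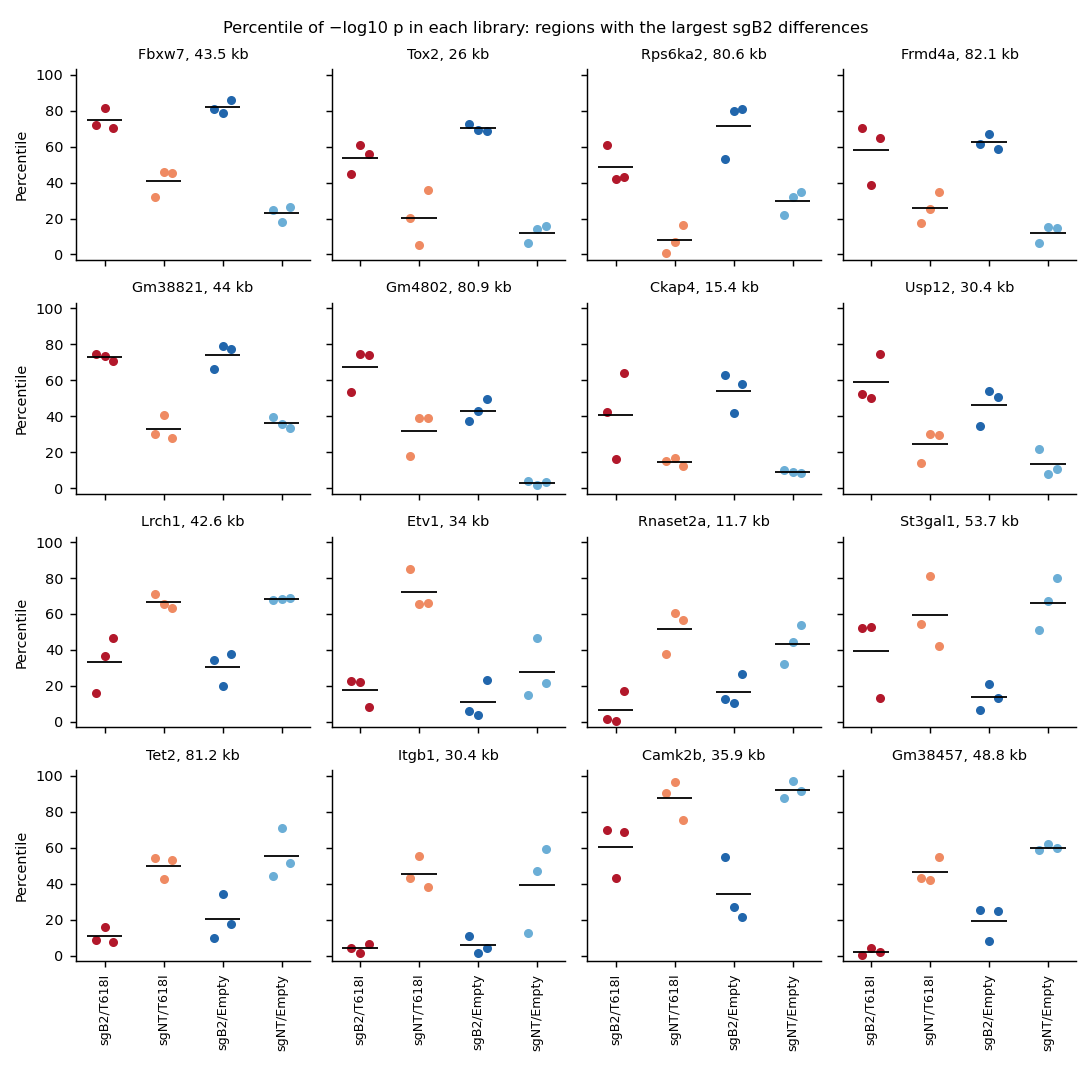
Percentile of −log10 p (y axis, 100 is strongest) in each library for the 8 regions with the largest rise and the 8 with the largest fall with sgB2, named by nearest gene and distance. Points are libraries, ordered sgB2/T618I, sgNT/T618I, sgB2/Empty and sgNT/Empty, and bars are group means of 3. The Fbxw7 region has group means of 74.8 and 81.9 with sgB2, against 40.9 and 23.0 with sgNT.

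With T618I present, 22 regions rose and 24 fell with sgB2, against 0.566% and 0.468% of all shared regions, and together 1.79% of the set against 1.03%. With the empty vector 45 rose and 52 fell, against 1.39% and 1.34% of all shared regions, and together 3.77% of the set against 2.73%. The fold column left 1 call with T618I, 0.0389% of the set against 0.041% of all shared regions. With the empty vector it left 14 rises and 5 falls, 0.738% against 0.484%. Whole-list ranks left 4 calls with T618I (0.155% against 0.0492%) and 12 with the empty vector (0.466% against 0.295%). Both comparisons called 10 regions (0.389% of the set, against 0.345% of all shared regions), all in the same direction, which was 21.7% of the T618I list and 10.3% of the Empty list. The same sign in both was seen in 65.7% of the set and in 62.8% of all shared regions. Among the largest was a region near Emb, the embigin gene, at 9.2, 2.8 and 4.4 in sgB2/T618I, against 49.6, 63.4 and 54.6 in sgNT/T618I, a call that was lost with the fold column and with whole-list ranks. A region near Tns3, a focal adhesion tensin, was at 35.5, 70.8 and 57.1 in sgB2/Empty, against 5.5, 5.7 and 3.3 in sgNT/Empty, and was at or below 5.7 in all 6 T618I libraries. Leaving out single libraries gave between 7 and 43 calls with T618I and between 34 and 140 with the empty vector. The fewest came without sgNT/T618I replicate 2 and without sgNT/Empty replicate 3.

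A T618I difference that depended on the guide was called in 2 regions, both higher, which was 0.0777% of the set against 0.041% of all shared regions (0.0% lower). Without adjustment 249 of the regions (9.68%) had a limma p below 0.05, against 7.77% of all shared regions. The region near Fem1al, which lies inside Eml6 (chr11:29801794-29802404), was at 53.2, 68.9 and 44.7 in sgB2/T618I and 1.3, 5.9 and 2.3 in sgNT/T618I, against 40.5, 20.8 and 13 in sgB2/Empty and 38.5, 36.4 and 43.3 in sgNT/Empty. With T618I it was higher in sgB2 cells and lower in sgNT cells, and the difference of differences was 67.0 ± 11.1 points (limma adjusted p = 0.0429). The region inside Sorcs2, a sortilin-family receptor (chr5:36089094-36089682), was at 70.2, 77.9 and 75.6 in sgB2/T618I and 66.5, 54.0 and 62.0 in sgNT/T618I, against 16.0, 40.6 and 47.1 in sgB2/Empty and 85.2, 83.5 and 88.5 in sgNT/Empty, with a difference of 64.9 ± 10.9 points (adjusted p = 0.0429). Each call was lost in 17 of the alternatives, most of them leaving out 1 library.

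The covered length of the peaks, a second readout of the same regions, changed in few of them. It was taken as log2 of the covered bases minus the library's median over shared regions. With T618I 59 regions widened and 18 narrowed, against 1.23% and 0.459% of all shared regions, and together 2.99% of the set against 1.69%. With sgB2 5 widened and 10 narrowed, against 0.0902% and 0.23% of all shared regions, and together 0.583% of the set against 0.32%. Of the 683 regions called by rank for T618I, 34 were also called by width, 4.98% of the rank list and 44.2% of the width list, and 21 of the 34 had the same sign. The Adamts2 region narrowed with T618I by a log2 difference of −0.68 ± 0.14 (limma adjusted p = 0.0326), with 299 to 511 bp covered in sgB2/T618I and 474 to 700 bp in sgNT/T618I, against 500 to 777 bp in sgB2/Empty and 602 to 900 bp in sgNT/Empty.

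The position of called regions is given as a description. Regions that rose with T618I lay inside a gene in 48.4% of cases, those that fell in 54.8% and those not called in 58.5%. By distance, 24.3% of 970 regions at 10 to 20 kb, 27.7% of 1076 at 20 to 50 kb and 28.3% of 527 at 50 to 100 kb were called for T618I. Over all 7 comparisons 860 of the 2573 regions (33.4%) were called at least once, against 23.3% of all shared regions, and 1713 (66.6%) in none. A working name of invariant regions thus holds for the presence of a peak, which the rule fixed, and not for the rank of these 860 regions.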

How the data were processed

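Open chromatin was measured by ATAC-seq in 12 libraries of mouse HoxB8 cells. Per the submitters' processing notes, reads were handled with BWA 0.7.17, SAMtools 1.9, bedtools 2.30, deepTools 3.5 and MACS2 2.2.7.1 on mm10, and the authors deposited 1 broad peak list per library, called separately. In the deposited lists each peak has a −log10 p, a −log10 q, a fold (ratio over background) and a score. Scores, equal to 10 times the deposited −log10 q in at least 99.96% of the peaks of every list, were not used. Depth is unknown from peak lists, so no counting interval is given.

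Peaks were merged with python 3.11.15 (numpy 2.4.6, pandas 2.3.3), distances were taken to 19457 protein-coding genes of GRCm38.p6, and the highest −log10 p of each region was ranked within each library over the 12191 shared regions. The percentiles were fitted with limma 3.58.1 (R 4.3.3, trend) to the 4 groups in 1 model of all 12 libraries, and p-values were adjusted by Benjamini-Hochberg per comparison. Each main effect averages the 2 levels of the other factor. Named regions were up to 8 per direction for these effects, up to 4 for the others, the strongest and weakest members, and up to 4 per gene list; 2 of them are not reported here. Loci with 6 or more regions and 8 further genes were added after their values were seen. Members and lists were chosen with earlier results of these data known.

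In simulated percentiles for the T618I effect over 12191 regions, 200 regions were changed and the others had no group difference. The fit recovered 57 of 100 regions moved by 30 points and 3 of 100 moved by 15, and called 1 other. Smaller shifts were thus often missed in the simulation. In the data 2244 of the 12191 regions were called for T618I, so the adjusted threshold was less strict there. The smallest called difference in the set was 3.5 points. The simulated recovery therefore does not give the sensitivity of the fit to the data. Planned sequence of the regions was replaced by promoter windows, as no genome was at hand. Alternatives covered the ranked set and column, peak thresholds, list length, overlap, distance, a replicate block, each library left out and, added after the data were seen, −log10 p times covered length.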

Additional observations from a re-analysis of the deposited data

Results flagged for a closer look

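Of 68 sets of 6 libraries examined for single libraries far from the rest, 4 stood out, and chance gives about 1 in 20. The region in Myo1d was at the 41.6 percentile in sgNT/Empty replicate 3, while the other Empty libraries were between 3.5 and 10.9. The Frmd4a region that rose with sgB2 was at 38.5 in sgB2/T618I replicate 2, against 58.6 to 70.3 in the other sgB2 libraries. The Tet2 region that fell with sgB2 was at 34.4 in sgB2/Empty replicate 2, against 7.6 to 17.4 in the other sgB2 libraries. The median percentile of all distal shared regions was 37.0 in sgNT/T618I replicate 3, against 33.5 to 34.8 in the other T618I libraries.

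The T618I difference depended on the guide, by limma's interaction test, in the region near Fem1al (67.0 points) and in that inside Sorcs2 (64.9 points), with an adjusted p of 0.0429 each.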

How the results depend on the processing

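Counts of called regions, taken here in the order T618I, sgB2, T618I in sgNT cells, T618I in sgB2 cells, sgB2 with the empty vector, sgB2 with T618I, and interaction, were 683, 198, 224, 334, 97, 46 and 2. Ranking the fold column gave 231, 25, 15, 78, 19, 1 and 0, and ranking within each whole list gave 389, 40, 28, 110, 12, 4 and 0. With list length as a covariate T618I had 451, T618I in sgNT cells 143, the interaction 1 and T618I width 37. Over 20 kb 1603 regions remained, with 447 for T618I, 122 for sgB2, 29 for sgB2 with T618I and 1 for the interaction. These counts come from a smaller set. They were 27.9%, 7.61%, 1.81% and 0.0624% of it, against 26.5%, 7.7%, 1.79% and 0.0777% of the main set. Over all shared regions the shares were 18.4%, 5.22%, 1.03% and 0.041%. Equal-length lists left 1940 regions. They gave 116 for sgB2 (5.98% of these regions, against 4.19% of all shared regions there). For T618I in sgNT cells they gave 136 (7.01% against 3.16%). For sgB2 with the empty vector and with T618I they gave 59 (3.04% against 2.34%) and 26 (1.34% against 0.767%). T618I width had 49. Stricter peaks left 1920 regions, with 116 for sgB2, 139 for T618I in sgNT cells and 16 for sgB2 with T618I. These were 6.04%, 7.24% and 0.833% of those regions, against 4.12%, 3.21% and 0.489% of all shared regions there. The interaction had 0 with equal-length lists, stricter peaks, 25% cover and the replicate block. Multiplying by covered length gave 359 for T618I in sgNT cells and 73 for sgB2 with T618I.

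Leaving out each library in turn gave 546 to 636 for T618I, 111 to 255 for sgB2, 97 to 230 for T618I in sgNT cells, 192 to 375 for T618I in sgB2 cells, 34 to 140 for sgB2 with the empty vector, 7 to 43 for sgB2 with T618I, 0 to 3 for the interaction, 40 to 72 for T618I width (main 77) and 6 to 23 for sgB2 width (main 15). Counts fell by more than 1.5 times for T618I in sgNT cells without sgNT/Empty replicate 1 or 2 or any sgNT/T618I library, and for T618I in sgB2 cells without replicate 1 or 2 of sgB2/Empty or sgB2/T618I. The same held for sgB2 with the empty vector without replicate 1 or 2 of sgB2/Empty or 2 or 3 of sgNT/Empty, for sgB2 with T618I without any T618I library or replicate 2 or 3 of sgB2/Empty, and for T618I width without replicate 1 or 2 of sgB2/Empty or any sgNT/T618I library. The sgB2 width count did so in most omissions, and its highest came without sgNT/Empty replicate 1. The interaction had 0 or 1 without any single library other than sgB2/Empty replicates 1 and 3.

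Same-numbered libraries did not deviate together in rank (mean residual correlations −0.01, −0.01 and −0.02, and 1 of 12 libraries closest to its own number). Ranks cannot show whether same-numbered libraries were prepared together. The replicate block gave 6 calls for sgB2 width. Over the 67 named calls and 1549 alternative values, 1437 kept their direction and side of the threshold, 109 were no longer called, 2 became called and 1 reversed, Camk2b with sgB2 at 8.68 when multiplied by covered length. Of the 16 named T618I regions 15 kept their call in every alternative that could be run for them, and E330021D16Rik lost it with the fold column. Of the 16 named sgB2 regions 8 did. In the other comparisons 8 regions each were named, of which 6 kept it for T618I in sgB2 cells, 3 for T618I in sgNT cells, 2 for sgB2 with the empty vector and 0 for sgB2 with T618I. Neither interaction call was kept throughout. The causes were not tested. Ranks show relative strength within a library, not absolute openness.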
